A study of Mus musculus with 16 samples.

Results

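The interactions described here are the promoter contacts of mouse liver that were listed at ZT18 and at none of the other 3 timepoints, out of the 4 lists of a Promoter Capture Hi-C experiment. They were selected on their CHiCAGO score and their absence: an unordered pair of HindIII fragments was kept when its score was 7 or more in the ZT18 list and the pair was missing from the ZT0, ZT6 and ZT12 lists at every listed score. The rule found 1955 interactions among the 75834 with a score of at least 7 at ZT18, which is 2.58% of them, and among 247177 distinct interactions over all lists. The same rule gave 2091 interactions at ZT0 (2.88% of the ZT0 interactions at that score), 2808 at ZT6 (3.64%) and 1976 at ZT12 (2.6%). These shares are the outcome of the rule and are given as a description.

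Promoter Capture Hi-C joins DNA ends that lie close together in the nucleus and then enriches the junctions that carry a promoter fragment, called a bait. CHiCAGO scores how far the reads of a pair exceed a background that falls with distance and includes noise. Promoters are known to contact enhancers, insulator sites and other promoters over distances from a few kilobases to megabases. In the liver, many genes follow the daily clock, which is driven by activators that bind E-box elements and by feedback repressors, with further layers through D-box and ROR elements.

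Livers came from wild type male C57BL/6 mice, labelled 8 weeks old, which had food at all times and 12 h of light in each day for 2 weeks before dissection. Zeitgeber time (ZT) counts hours from lights on, so ZT0, ZT6, ZT12 and ZT18 are lights on, midday, lights off and midnight of the mice. Each timepoint had 3 pools of 2 livers, pool A ran on 2 lanes, and the 16 samples had been merged into 1 list per timepoint before calling. The lists held 151347 interactions at ZT18 and between 146262 and 154775 at the other timepoints. There was no replicate error, so no difference below was tested. Intervals in brackets are 95% Wilson intervals for shares and order-statistic intervals for medians. They cover counting error only and are too narrow, because interactions of a bait are not independent. Absence means that a pair was not in a list, where the lowest score was 5. It does not mean that no reads joined the fragments, and scores of absent pairs are not known here. A whole liver holds hepatocytes and other cell types, and a contact in few cells cannot be told apart from a weak contact in many. In a summary that came with the study, the totals of all lists but ZT0 stand under a different timepoint. The sample labels were followed here. Under the other order the list at ZT18 would be the one labelled ZT6, whose values are given beside those of ZT18 for most measures.

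The strongest interactions by score centred on a single stretch of chromosome 1 in build mm9, a fragment between genes at chr1:90119291-90123499. The sequence around its only E-box (CACGTG) is shown because the fragment held both interactions of highest score. It is set beside the promoters of Ugt1a1 and Hjurp, the genes it contacted. Fragment sequences are from mm9, plus strand, and promoters are from RefSeq in build GRCm38.p6, from 250 bases before to 50 after the start, 5′ to 3′ on the strand of the gene. Capitals mark matches to any of 5 motifs searched on both strands: the E-box CACGTG, the D-box TTATGTAA, the ROR element core TAGGTCA, the HNF4 motif CAAAGTCCA and the CTCF core AGGGGGCGC. Neither promoter window held a match.
Fragment at chr1:90121304-90121603: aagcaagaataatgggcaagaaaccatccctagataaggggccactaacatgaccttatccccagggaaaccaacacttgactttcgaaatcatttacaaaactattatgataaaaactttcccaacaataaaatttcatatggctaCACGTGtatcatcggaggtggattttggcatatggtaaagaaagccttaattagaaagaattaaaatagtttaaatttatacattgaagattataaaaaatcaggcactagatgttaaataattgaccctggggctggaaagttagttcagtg
Ugt1a1 promoter at chr1:88211709-88212008, plus strand: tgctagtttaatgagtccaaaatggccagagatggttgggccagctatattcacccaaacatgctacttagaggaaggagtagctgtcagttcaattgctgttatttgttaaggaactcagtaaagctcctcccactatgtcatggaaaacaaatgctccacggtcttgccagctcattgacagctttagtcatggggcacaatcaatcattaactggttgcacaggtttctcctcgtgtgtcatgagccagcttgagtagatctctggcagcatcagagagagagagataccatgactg
Hjurp promoter at chr1:88277530-88277829, minus strand: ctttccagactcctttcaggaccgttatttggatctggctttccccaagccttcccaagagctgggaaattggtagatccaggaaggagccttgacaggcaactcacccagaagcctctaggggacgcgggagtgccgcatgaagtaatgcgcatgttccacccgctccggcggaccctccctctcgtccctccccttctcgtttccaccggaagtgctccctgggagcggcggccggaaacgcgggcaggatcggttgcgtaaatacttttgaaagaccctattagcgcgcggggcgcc

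The next sequences belong to the interactions of rank 5, 9 and 10 by score. The first is the stretch of a Trit1 intron around its ROR core that the Mfsd2a promoter contacted. The second is the middle of the fragment that the Hist1h4f promoter contacted from across the histone cluster. It is shown with the window of that promoter (named H4c6 in RefSeq) because neither printed stretch holds any of the 5 motifs. The whole bait of Hist1h4f, of 3878 bp, holds an E-box. The last pair are the promoters of Acy1 and Rbm15b, which were joined to each other and hold 1 and 2 E-boxes. An E-box lay in 1957 of 27025 RefSeq promoters of this length, or 7.24%, and a ROR core in 2.64%. A match is a description of the letters and not a site.
Trit1 intron at chr4:122723343-122723642: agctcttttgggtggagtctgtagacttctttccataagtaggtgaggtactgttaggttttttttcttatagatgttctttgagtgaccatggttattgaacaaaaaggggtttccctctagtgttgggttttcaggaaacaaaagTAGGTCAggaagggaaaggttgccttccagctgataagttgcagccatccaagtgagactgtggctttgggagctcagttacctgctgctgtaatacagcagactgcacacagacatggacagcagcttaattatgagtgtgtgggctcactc
Fragment at chr13:21829271-21829570: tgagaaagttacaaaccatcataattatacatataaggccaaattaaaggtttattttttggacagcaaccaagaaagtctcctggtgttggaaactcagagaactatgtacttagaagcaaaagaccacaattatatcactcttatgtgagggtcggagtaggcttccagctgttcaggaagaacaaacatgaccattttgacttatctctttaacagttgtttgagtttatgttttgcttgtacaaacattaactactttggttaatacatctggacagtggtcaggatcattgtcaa
Hist1h4f promoter at chr13:23551619-23551918, minus strand: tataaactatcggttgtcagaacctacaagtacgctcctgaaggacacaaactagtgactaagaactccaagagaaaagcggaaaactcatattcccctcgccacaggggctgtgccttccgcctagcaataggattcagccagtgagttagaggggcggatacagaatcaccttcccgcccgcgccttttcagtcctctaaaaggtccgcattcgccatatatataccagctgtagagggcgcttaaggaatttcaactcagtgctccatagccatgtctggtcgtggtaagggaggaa
Acy1 promoter at chr9:106438187-106438486, minus strand: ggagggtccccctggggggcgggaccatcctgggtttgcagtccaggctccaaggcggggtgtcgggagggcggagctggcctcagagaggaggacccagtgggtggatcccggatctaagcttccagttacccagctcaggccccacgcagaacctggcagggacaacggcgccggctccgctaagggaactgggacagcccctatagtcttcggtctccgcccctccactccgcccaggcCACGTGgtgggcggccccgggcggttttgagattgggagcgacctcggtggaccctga
Rbm15b promoter at chr9:106887026-106887325, minus strand: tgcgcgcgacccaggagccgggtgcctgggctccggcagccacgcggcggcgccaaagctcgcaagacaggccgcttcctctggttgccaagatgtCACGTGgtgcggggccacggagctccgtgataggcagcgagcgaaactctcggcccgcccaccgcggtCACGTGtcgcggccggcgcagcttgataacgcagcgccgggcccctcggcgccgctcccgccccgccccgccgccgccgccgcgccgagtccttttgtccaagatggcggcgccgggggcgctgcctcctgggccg

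Most of the 1955 interactions lay close to the score minimum. Their median score was 7.56 with quartiles of 7.22 and 8.15, against a median of 9.51 for all ZT18 interactions at a score of at least 7. A score from 7 to below 8 was held by 1373 of them (70.2%), 511 lay from 8 to below 10, and 71 reached 10. Just inside the minimum, 25 interactions had a score of exactly 7. Just outside it, 27 interactions listed at ZT18 only had 6.99, and at any score the ZT18 list held 21000 interactions that no other list did. The share listed at ZT18 only fell with the score, from 31.6% of ZT18 interactions with a score of 5 to below 6, through 7.09% from 7 to below 8, to 0.243% from 10 to below 20. Above 20 only 2 of 5301 were listed at ZT18 only, against 2 of 5009 at ZT0, 6 of 5452 at ZT6 and 1 of 5235 at ZT12.

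Both interactions above 20 shared the chromosome 1 fragment. Ugt1a1 encodes the liver enzyme that conjugates bilirubin with glucuronic acid, and Hjurp the chaperone that loads the centromeric histone CENP-A. The bait that holds the Hjurp start also holds a start of Trpm8, a cold-sensing ion channel. The fragment of 4209 bp contacted the Hjurp promoter with a score of 34.94 at a distance of 52.6 kb, and the Ugt1a1 promoter with a score of 27.84 at 12.3 kb. It had no listed pair of any promoter at ZT0, ZT6 or ZT12, and these were its only pairs at ZT18.

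**Figure D1:**
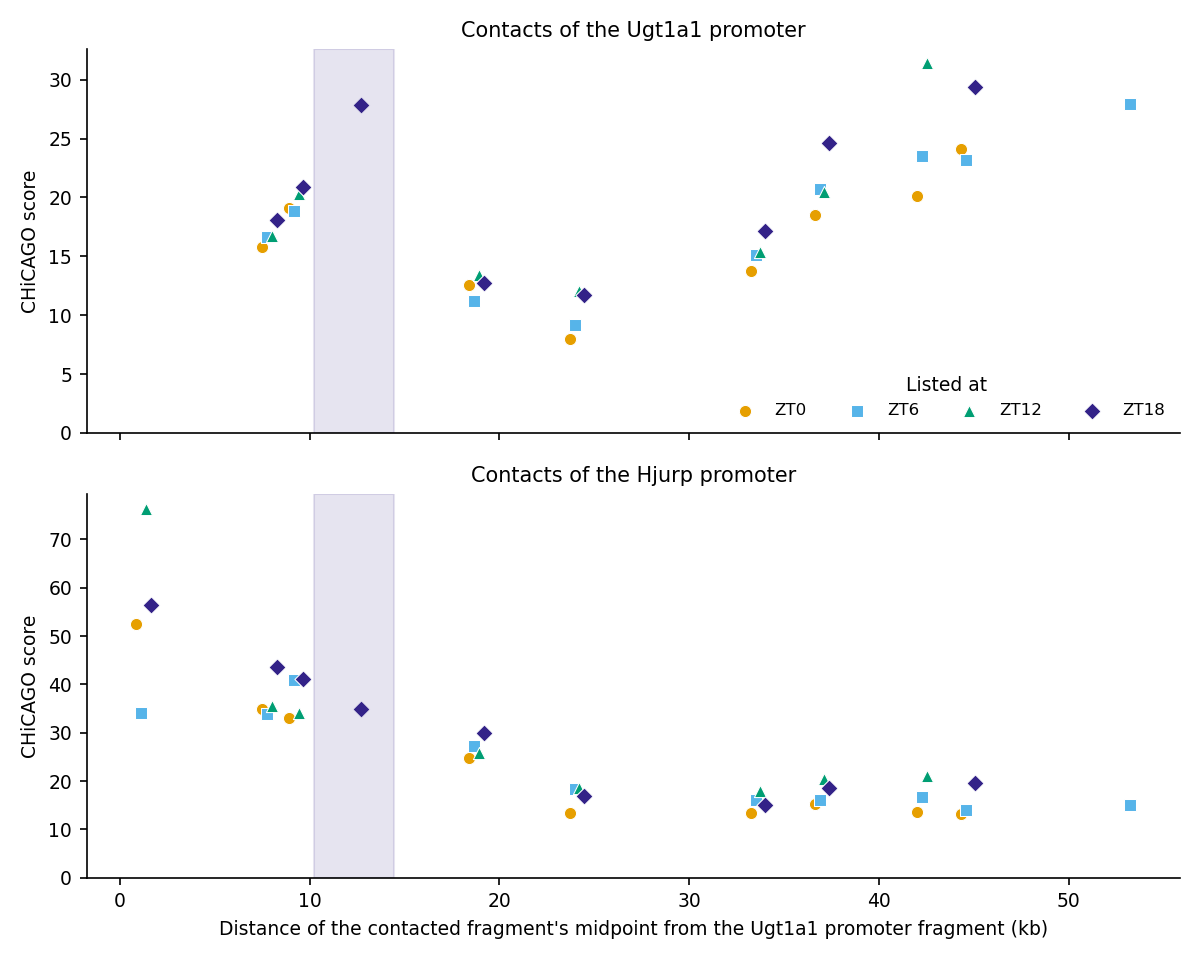
CHiCAGO scores (vertical axes, linear) of the fragments between the Ugt1a1 and Hjurp promoters, by distance from the Ugt1a1 promoter in kb, for contacts of the Ugt1a1 promoter (top) and of the Hjurp promoter (bottom). Each point is a listed contact at ZT0, ZT6, ZT12 or ZT18, set slightly apart sideways, and a missing point is a contact that the list did not hold. The shaded fragment was listed at ZT18 only, with scores of 27.84 and 34.94, while the fragment before it was listed at all 4 timepoints for both promoters.

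The fragments around it were contacted all day. The fragment directly before it had scores with the Ugt1a1 promoter of 19.09, 18.85, 20.33 and 20.86 from ZT0 to ZT18. The same fragment scored 33.0, 40.9, 34.03 and 41.11 with the Hjurp promoter, and both sets are high at every timepoint. On the other side the fragment adjoins the bait of Heatr7b1, and the fragment past that bait scored 12.52, 11.2, 13.43 and 12.69 with Ugt1a1. Other fragments of the same interval also dropped out as a whole. A fragment of 3469 bp on Heatr7b1 exons scored 20.11, 23.48 and 31.41 with Ugt1a1 at ZT0, ZT6 and ZT12 and had no listed pair at ZT18. Its neighbour of 1139 bp had scores of 24.14, 23.18 and 29.39 with Ugt1a1 at ZT0, ZT6 and ZT18 and no listed pair at ZT12. A fragment of 178 bp on a Hjurp exon was listed at ZT6 only, at 27.92 with Ugt1a1 and 15 with Hjurp. In each case the score was missing for both promoters at the same timepoint. Over the genome, 105 of 16211 non-promoter fragments with at least 2 pairs in each of the ZT0, ZT6 and ZT12 lists had none at ZT18, against 107 of 16130 at ZT6, 126 of 16298 at ZT12 and 216 of 16775 at ZT0. The opposite case, at least 2 pairs in 1 list and none in the others, was found for 226 fragments at ZT18, 277 at ZT0, 380 at ZT6 and 253 at ZT12. With at least 5 pairs in place of 2, no fragment was of either kind at any timepoint (0 of 1500 absent at ZT18). Whether filtering of fragments in each list plays a part was not tested.

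The Ugt1a1 promoter took part in 5 interactions listed at ZT18 only, of which 4 joined it to other chromosomes, with scores of 10.44, 7.8, 7.8 and 7.03. Its listed contacts numbered 33, 38, 32 and 33 from ZT0 to ZT18. Hjurp had 44, 48, 39 and 40. For both promoters the count at ZT18 lay within the range of the other timepoints.

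Interactions between chromosomes made up 14 of the 1955, or 0.716% (0.427 to 1.20%), against 0.0844% of all ZT18 interactions at that score. The share among interactions listed at a single other timepoint was 0.622% at ZT0, 0.463% at ZT6 and 0.354% at ZT12. The Sfi1 promoter, a gene for a centrosomal protein, took part in 3 of the 14 and the Ugt1a1 promoter in 4. One of those at Sfi1, at 7.28, led to chr1:90117407-90119290, between Ugt1a1 and Hjurp. The bait of Gm11399 and Gm11400, near Sfi1 on chromosome 11, was joined to Ptprh at 8.39. It was also joined at 7.28 to chr1:90116487-90117406 and chr1:90145552-90146564, in the same interval of chromosome 1. The highest-scoring of the 14, at 12.42, joined the Kdelr2 promoter, for a receptor that returns proteins to the endoplasmic reticulum, to an exon fragment at Ccnb1, the cyclin of mitotic entry.

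Of the other 10 among the 12 interactions of highest score, 5 were pairs of promoters. Tcfe3, a lysosomal and autophagy transcription factor, was joined to Ftsj1, a tRNA methyltransferase, with a score of 13.39 over 490.2 kb. Ido2, an enzyme of tryptophan breakdown, was joined to Adam32 at 12.56 over 376 kb. Mfsd2a, a lysophosphatidylcholine transporter, contacted the Trit1 intron shown above at 12.49 over 84.4 kb. A U6 small nuclear RNA gene contacted an exon of C530050E15Rik at 12.13 over 145 kb. Abt1, an activator of basal transcription, contacted a fragment 1550 kb away across the histone cluster at 11.89. Acy1, which removes acetyl groups from N-acetylated amino acids, was joined at 11.83 over 452 kb to the bait of Rbm15b, an RNA-binding protein, and of Manf, a protein of the endoplasmic reticulum stress response. The promoters of 2610019F03Rik and Cln8, a gene of lysosomal protein traffic, were joined at 11.71 over 902 kb. For Tcfe3 and Ido2, no list held another contact of the promoter within 10 kb. For Abt1 and Hist1h4f, such a neighbouring contact was listed at all 4.

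The interactions spanned longer distances than others of the same score. Their median distance between fragment midpoints was 265 kb (252 to 275 kb; 1941 interactions within a chromosome), against 135 kb for all ZT18 interactions at a score of at least 7 and 140 kb (137 to 142 kb) for those from 7 to below 8. Interactions listed at a single other timepoint had medians of 273 kb at ZT0, 275 kb at ZT6 and 242 kb at ZT12. Of the interactions listed at ZT18 only, 75.1% (73.1 to 77.0%) lay over 150 kb apart, against 45.3% of all at that score. This share was 79.4% at ZT0, 76.4% at ZT6 and 70.9% at ZT12. Distances over 1 Mb were held by 102 of them (5.26%), against 1.15% of all. At the other end, 31 (1.60%) lay under 25 kb, against 7.69% of all. A long distance thus went with listing at a single timepoint whichever the timepoint.

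**Figure D2:**
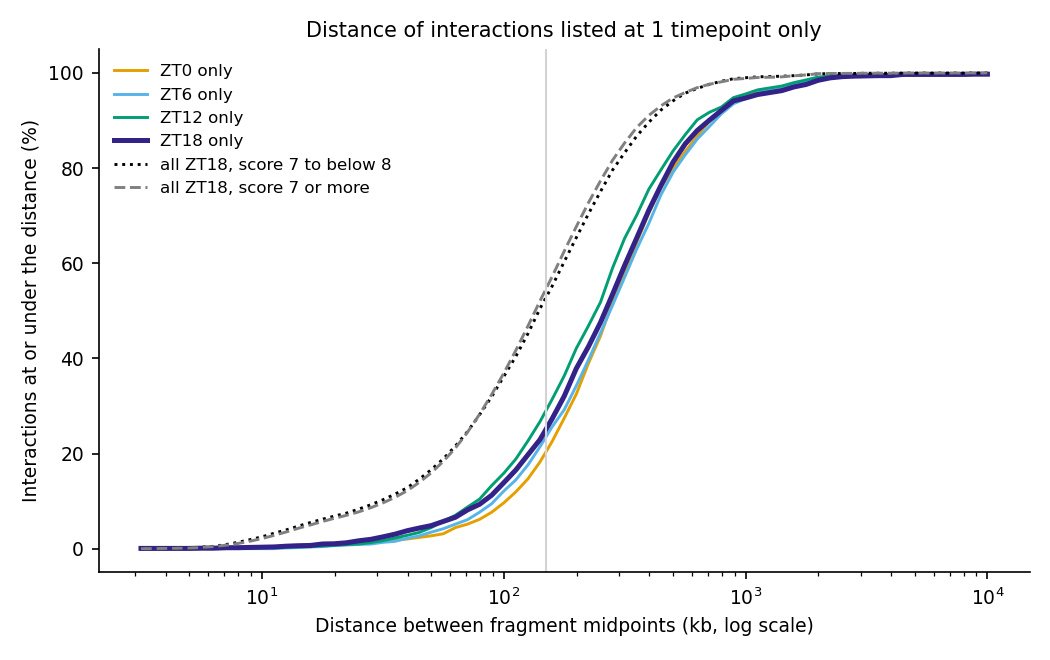
Share of interactions (%, vertical axis) at or under each distance between fragment midpoints in kb (log scale), for interactions listed at a single timepoint with a score of at least 7 and for all ZT18 interactions at 2 score ranges. The grey vertical line marks 150 kb. The 4 curves for a single timepoint lie close together and to the right of both ZT18 curves, with medians from 242 to 275 kb against 135 and 140 kb.

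Promoter-promoter interactions, in which both fragments are baits, were more frequent than among interactions listed at a single other timepoint. They made up 441 of 1955, or 22.6% (20.8 to 24.5%), of the interactions listed at ZT18 only. The share was 18.7% (17.0 to 20.4%) at ZT0 only, 16.7% (15.3 to 18.1%) at ZT6 only and 18.5% (16.9 to 20.3%) at ZT12 only. Among all ZT18 interactions it was 18.9% at a score of at least 7 and 16.3% from 7 to below 8. The interval at ZT18 does not overlap those of the other 3 timepoints, but there is no replicate list that could show how much this share varies. Under the other order of timepoints, ZT18 would be the list labelled ZT6, with 16.7%, the lowest share of any single timepoint. The ranking of the shares also depended on the score minimum. At a minimum of 6 the shares were 18.4% at ZT18, 16.1% at ZT0, 13.5% at ZT6 and 17.4% at ZT12, and at a minimum of 10 ZT18 was lowest with 31.0% (21.4 to 42.5%; 22 of 71) against 32.9 to 34.2%.

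By distance, the share at ZT18 was 17.8% up to 150 kb, 20.6% from 150 to 500 kb and 35.1% (30.4 to 40.2%; 129 of 367) over 500 kb. Over 500 kb it was 25.2% at ZT0 only, 22.1% at ZT6 only and 31.3% (26.5 to 36.5%) at ZT12 only, and 22.7% among all ZT18 interactions. The interval of ZT12 overlaps that of ZT18 there. Up to 150 kb the intervals of ZT18 and of each other timepoint overlapped.

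**Figure D3:**
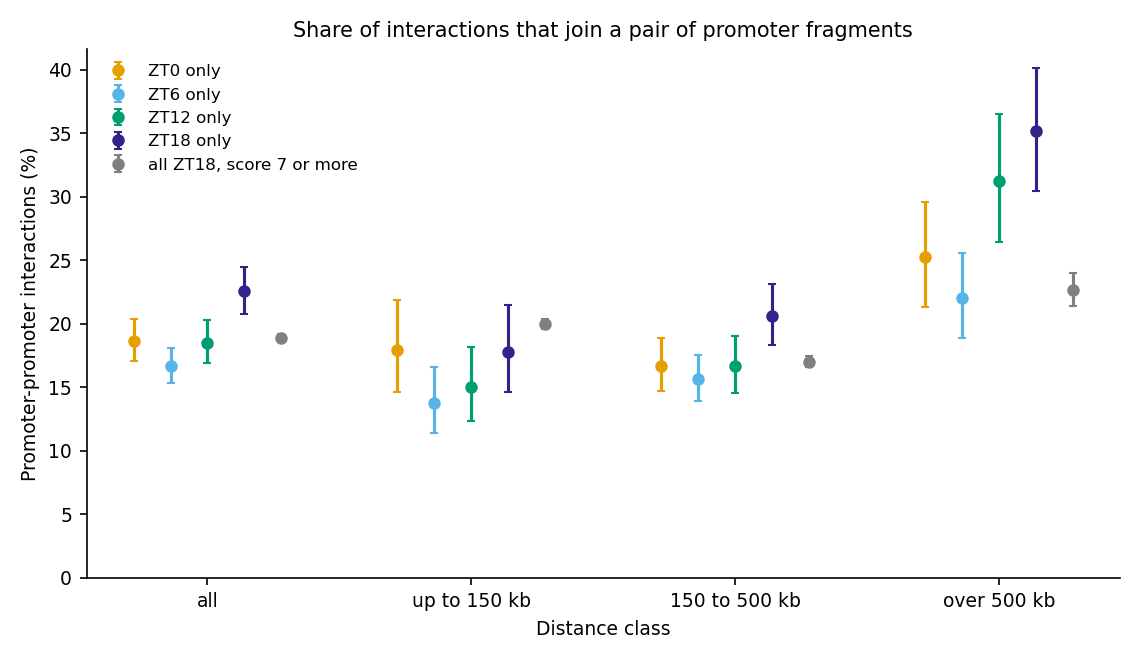
Share of interactions joining a pair of baits (%, vertical axis from 0) for all distances and for 3 distance classes, in interactions listed at a single timepoint with a score of at least 7 and in all ZT18 interactions at that score (grey). Points are shares and bars are 95% Wilson intervals, counting error only. Over all distances the ZT18 point at 22.6% lies above the other timepoints, and over 500 kb it is 35.1%.

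Many of the interactions had a close relative at another time of day. The rule asks only for the exact fragment pair, so contacts of the same promoter with a fragment no more than 10 kb away were counted next. Of the 1955, 1533 (78.4%; 76.5 to 80.2%) had such a neighbouring contact in at least 1 of the other 3 lists and 982 (50.2%) in all 3. This compares with 95.9% of all ZT18 interactions at that score, and with 93.4% of those from 7 to below 8. The difference was also seen among interactions over 150 kb, with 76.8% (74.6 to 78.9%) against 93.4% of ZT18 interactions with a score from 7 to below 8. Distances inside this class were not matched. Among the 1955, the share was 50.3% (45.7 to 55.0%) for promoter-promoter interactions and 86.6% (84.8 to 88.2%) for the others. By list, neighbouring contacts were found in the ZT0 list for 64.2% of the interactions, in the ZT6 list for 65.4%, in the ZT12 list for 65.1% and in the ZT18 list itself for 69.3% (67.2 to 71.3%). In each of the 4 groups listed at a single timepoint the share was highest in the list of its own timepoint. Part of this is built in, because the list of the own timepoint holds the other interactions of the group and the rule keeps them out of the other lists. At ZT18, 44 of the interactions adjoined another of the 1955 at the same promoter.

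**Figure D4:**
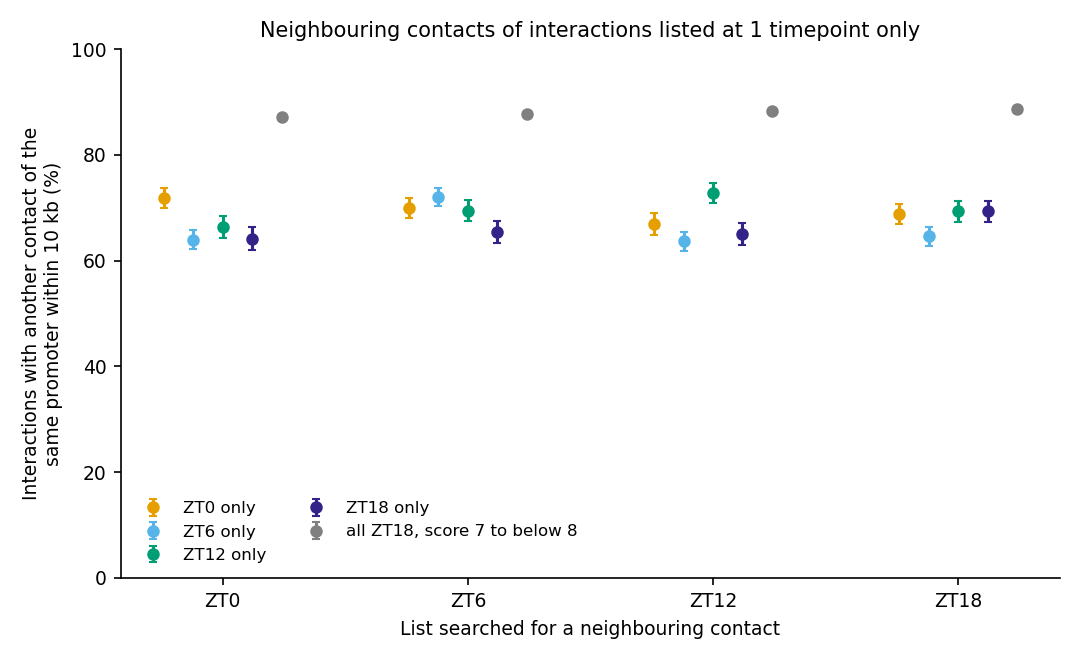
Share of interactions (%, vertical axis from 0 to 100) that have another listed contact of the same promoter within 10 kb of the contacted fragment, by the list searched (horizontal axis), for interactions listed at a single timepoint and for all ZT18 interactions with a score from 7 to below 8. Points are shares and bars are 95% Wilson intervals. The interactions listed at ZT18 only rise from 64.2% in the ZT0 list to 69.3% in the ZT18 list, and the grey points lie above 87% in every list. The list of the own timepoint also holds the other interactions of the group.

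Neighbouring contacts were listed at ZT18 and at no other timepoint for 67 of the 1955 (3.43%), against 2.82% at ZT0, 5.02% at ZT6 and 3.64% at ZT12 by the same count. Such a neighbour can itself be an interaction that the rule chose, and is then absent from the other lists by the rule. This count is therefore a description only. No neighbouring contact at any timepoint was found for 355 (18.2%). A stricter count asked that no list but ZT18 hold any pair with both ends within 10 kb of those of the interaction. This left 378 isolated interactions (19.3%; 17.6 to 21.1%), against 16.8% at ZT0, 19.1% at ZT6 and 15.4% at ZT12. Promoter-promoter interactions made up 217 of these 378, or 57.4% (52.4 to 62.3%), against 45.2% (40.1 to 50.4%) at ZT0, 39.7% at ZT6 and 43.8% at ZT12. Under the other order of timepoints, ZT18 would be the list labelled ZT6, with the lowest of these shares. There is no replicate list that could show how much they vary. The isolated pairs of promoters that came next by score, named after their values were seen, began with Unc13b and Clta, the clathrin light chain, at 11.45 over 947 kb. Further pairs were Pdcd10 and Etfdh at 11.33 over 4071 kb, and Herc1 and Aph1b, a gamma-secretase subunit, at 11.24 over 446 kb. Cnot3 and U2af2, a splicing factor, followed at 10.58 over 1415 kb.

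At least 1 interaction listed at ZT18 only was found at 1984 of the 13019 baits with a ZT18 interaction at a score of at least 7, or 15.2%. Of these promoters 1660 had 1, 257 had 2, 52 had 3 and 15 had 4 or more. The share of promoters with at least 1 rose with the number of contacts at ZT18, from 8.49% of promoters with 1 to 5 contacts to 38.1% of those with 41 or more. These contacts include the interactions listed at ZT18 only, so part of the rise is built in. The bait of Trabd and 1810021B22Rik, on chromosome 15, had the most with 7, at distances from 135 to 367 kb and scores from 7.19 to 9.29. Its contacts numbered 16, 43, 30 and 46 from ZT0 to ZT18, and 39 at ZT18 without the 7. They were few at ZT0 and many at ZT6 and ZT18. Of the 7 contacted fragments, 6 had a neighbouring Trabd contact at another timepoint.

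Gm17394, on chromosome 13, had 5 interactions listed at ZT18 only, all with fragments between genes, from 307 to 693 kb away, and 40, 46, 36 and 42 contacts from ZT0 to ZT18. Gm11274, in the histone cluster, had 5 that all led to other promoters, from 407 to 1983 kb away. The next promoters by summed score had 4 each. Btn2a2, a butyrophilin gene inside the histone cluster, had 44, 44, 37 and 45 contacts from ZT0 to ZT18. A930016O22Rik had 20, 19, 8 and 28. The bait of Pmm2, an enzyme of protein glycosylation, and Tmem186 had 23, 27, 21 and 40. Gm17179 had 20, 16, 30 and 39. A930016O22Rik, Pmm2 and Gm17179 had most contacts at ZT18 also when the 4 interactions were left out, and Btn2a2 did not.

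**Figure D5:**
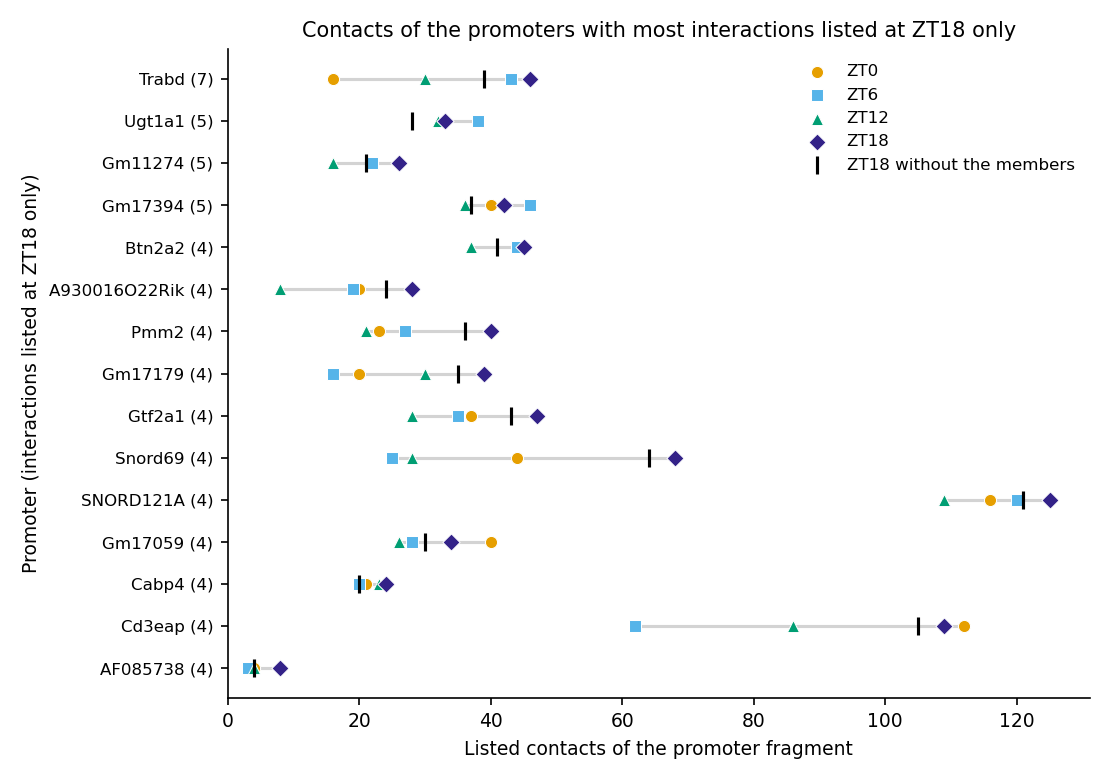
Number of listed contacts (horizontal axis from 0) at ZT0, ZT6, ZT12 and ZT18 for the 15 promoters with at least 4 interactions listed at ZT18 only, whose number stands in brackets after the gene. Black ticks give the number at ZT18 without these interactions. With them, 11 of the 15 promoters have most contacts at ZT18, and without them 6.

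Among these 15 promoters, Snord69 went from 25 contacts at ZT6 and 28 at ZT12 to 68 at ZT18, with 44 at ZT0. It is a small nucleolar RNA gene whose bait also overlaps Gnl3 and Glt8d1. The promoter of Gtf2a1, a subunit of the general transcription factor TFIIA, had 37, 35, 28 and 47 contacts. Both were chosen for mention after their values were seen. Over all 1984 promoters the contacts left after taking out the interactions listed at ZT18 only averaged 18.5, 18.8, 19 and 19.5 from ZT0 to ZT18. Scaled to 1000 interactions of each list they came to 250.3, 241, 249 and 256. The promoters chosen by the same rule at another timepoint also had most in the list of that timepoint: 284 at ZT0, 311 at ZT6 and 257 at ZT12. With the scaling, 29.2% of the 1984 promoters had most of their other contacts at ZT18, 27.4% at ZT0, 22.3% at ZT12 and 20.2% at ZT6. These shares were not computed for all baits or for the promoters chosen at another timepoint, so they are a description only.

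The replication-dependent histone genes of chromosome 13, which supply histones for newly copied DNA, lie in the interval chr13:21807632-24026720 in mm9. Of the 1955 interactions, 29 had both ends inside it, or 1.48% (1.03 to 2.12%), against 1.14% of all ZT18 interactions at that score. The shares were 1.87% at ZT0 only, 1.35% at ZT6 only and 0.759% at ZT12 only. Of the 29, 24 (82.8%) spanned over 1 Mb, against 55.2% of all ZT18 interactions at that score inside the interval. Inside it this share was 79.5% at ZT0 only, 92.1% at ZT6 only and 93.3% at ZT12 only. Hist1h4f contacted a fragment 1814 kb away at 11.79, and Hist1h2bg was joined to Gm11274 at 11.5 over 1802 kb. Hist1h4b was contacted at 10.1 over 2015 kb, and Hist1h2ac with Hist1h2bc at 9.92 over 1713 kb. The joined baits of Hist1h2ak with Hist1h2bn and of Hist1h4a with Hist1h3a and Hist1h1a scored 8.22. The contacts of the Hist1h4f promoter numbered 65, 63, 59 and 58 from ZT0 to ZT18, lowest at ZT18. Those of Hist1h2bg numbered 26, 28, 23 and 23.

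Baits with a histone gene carried such an interaction in 18 of 35 cases, or 51.4% (35.6 to 67.0%), against 15.2% of all baits. They had a median of 28 contacts at ZT18 against 8 for all baits, and among all promoters with 21 to 40 contacts the share was 25.8%. Histone genes are close copies of each other, and reads that match several copies cannot be placed. How the authors' mapping treated them at these fragments was not tested.

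None of the 8 core clock baits with a ZT18 interaction at a score of at least 7 had an interaction listed at ZT18 only, with a 95% Wilson upper bound of 32.4%, and neither had any of the 28 Hox baits (upper bound 12.1%). The other lists are small, and their intervals are wide. Beside the 15.2% of all baits, 3 of 11 baits of clock output factors had one. Hlf, a D-box binding factor, had 2, the highest at 8.24 with a Tom1l1 intron, and its contacts numbered 68, 85, 95 and 79 from ZT0 to ZT18. Klf10, a glucose-responsive repressor, had 7.74, and Bhlhe40, a repressor of the clock activators, had 7.15 with an intron of Edem1.

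Of genes for drug and bilirubin conjugation and cytochrome P450 enzymes, 4 of 11 baits had one: Ugt1a1, then Gstm1 with 8.08 to the Gstm5 promoter, Aldh1a1 with 7.91 and Cyp1a2 with 7.83 to the Mpi promoter. Among all baits the share was 15.2%. In cholesterol synthesis it was 4 of 13, namely Mvk (8.04), Sqle (7.65), Insig1 (7.42) and Fdft1 (7.02). Mvk had 1, 0, 0 and 1 contacts from ZT0 to ZT18, so this interaction was its only one at ZT18. In gluconeogenesis and glycolysis it was 5 of 16, led by Ppp1r3c (8.31), a glycogen-targeting phosphatase subunit, Fbp1 (8.12), Pck1 (7.83) and Pklr (7.82). Pck1, the rate-limiting enzyme of gluconeogenesis, had 11, 10, 13 and 18 contacts from ZT0 to ZT18, with most at ZT18.

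In lipogenesis 3 of 13 baits had one, beside 15.2% of all baits. Lpin1, a phosphatidate phosphatase, contacted a fragment between genes 937 kb away at 9.89, and had 2, 4, 10 and 10 contacts. Thrsp had 7.68 and Dgat1, the last enzyme of triglyceride synthesis, 7.51. In fatty acid oxidation 1 of 10 did: Ppara, the fasting nuclear receptor, had 2 such interactions, the highest at 8.63 with an exon of Gtse1. Its contacts numbered 6, 9, 17 and 19 from ZT0 to ZT18. They were few at ZT0 and ZT6 and many at ZT12 and ZT18.

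In the bile acid list 2 of 14 baits did, those of Nr5a2 (8.65), a nuclear receptor of bile acid genes, and Hsd3b7 (7.09). Hepatocyte transcription factors had 2 of 17, Foxa3 (7.78) and Onecut2 (7.70). Plasma proteins had 6 of 26, among them Afm (9.17), Fgg, a fibrinogen chain (8.89 at 2.46 kb), Ambp (7.7) and the bait shared by Apoa1 and Apoc3 (7.37). Insulin and growth signalling had 4 of 18, Gcgr (8.45), Pik3r1 (8.29), Socs2 (7.66) and Ghr (7.03). Heat shock genes had 2 of 9, Hspa1a (7.78) and Hspa8 (7.75). Cell cycle genes had 5 of 11, with Trp53 (9.44), Myc (8.54), Ccnd2 (8.17) and Gadd45g (7.4) highest. Developmental transcription factors had 5 of 14. Irx3 was joined at 9.51 over 425 kb to an intron of Fto, a region known for long contacts with Irx3. A neighbouring Irx3 contact within 10 kb was listed at ZT0, ZT6, ZT12 and ZT18. Dlx5, Pax2 and Meis1 had 8.59, 8.55 and 7.56. Of families taken by symbol, H2- genes had 5 of 14 baits, Serpin genes 8 of 24 and Olfr genes 48 of 306. Zfp genes had 27 of 203, Slc genes 29 of 214 and Cyp genes 3 of 42. All these counts stand beside the 15.2% of all baits. That share rose from 8.49% of promoters with 1 to 5 contacts to 38.1% of those with 41 or more, in part by construction. None of these lists was set against promoters with as many contacts, and none was tested.

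Circadian genes were taken from the list of the study, which was drawn up from liver RNA of this experiment and is not independent of it. Of its 1118 baits in any list, 132 had an interaction listed at ZT18 only (11.8%; 10.04 to 13.83%), against 1984 of all 18165 baits in any list (10.9%). At least 1 end lay on a circadian promoter in 154 of the 1955 interactions, or 7.88% (6.76 to 9.16%), against 9.71% (9.50 to 9.92%) of all ZT18 interactions at that score. It was 7.46% at ZT0 only, 6.73% at ZT6 only and 8.86% at ZT12 only. By peak time of the RNA (acrophase), 52 of 130 circadian promoters peaked at ZT12, 35 at ZT6, 22 at ZT18 (16.9%; 11.4 to 24.3%) and 21 at ZT0. Among circadian promoters of all ZT18 interactions at that score, 16.1% peaked at ZT18. The interval of the promoters with an interaction listed at ZT18 only holds this value, so no shift toward genes that peak at ZT18 was detectable at this number.

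The 6 genes of acrophase ZT18 with the highest scores were Acy1, Ubqln4, Fas, Hist1h4a, Unc45a and Hspa8. Ubqln4, a proteasome shuttle factor, was joined to the promoter of the histone methyltransferase Ash1l at 9.2 over 412 kb. Its contacts numbered 6, 2, 7 and 3 from ZT0 to ZT18. Fas, a death receptor, contacted a Lipa intron at 8.39 over 211 kb and had 10, 11, 10 and 14 contacts. Hist1h4a, a histone H4 gene, had 8.22, and Unc45a, a co-chaperone of HSP90, had 7.93 with a fragment between genes 217 kb away. Hspa8, a constitutive heat shock chaperone, had 7.75 at 157 kb. The contacts of Acy1 numbered 14, 12, 16 and 19. Shh, also listed with acrophase ZT18 and named here after its values were seen, had 3 contacts with introns and an exon of Lmbr1, a gene known to carry a distant limb enhancer of Shh. They scored 7.12, 7.07 and 7.06 at 787 to 804 kb, and all had neighbouring contacts at ZT0, ZT6 and ZT12. Only 2 of the 1955 joined circadian promoters to each other: Acy1 with Manf, of acrophases ZT18 and ZT0, and Cnn3 with F3, of acrophases ZT12 and ZT6, at 7.69 over 299.9 kb. An E-box lay in 5 of the 20 promoters with a RefSeq sequence among the circadian genes of acrophase ZT18 at these interactions, Acy1 and Fas among them (11.2 to 46.9%), and none of the other 4 motifs did. Over the 1500 promoters of protein-coding genes at these interactions, an E-box lay in 145 (9.67%; 8.27 to 11.3%) against 7.24% of all promoters, and a CTCF core in 1.67% against 1.24%. The shares of the other motifs lay below those of all promoters, at 0.533% against 0.955% for the D-box, 1.93% against 2.64% for the ROR core and 0.2% against 0.477% for the HNF4 motif. For the CTCF core, D-box, ROR core and HNF4 motif the value of all promoters lay within the counting interval. For the E-box it lay below the interval. The set of all promoters was not limited to genes with a listed contact, so it is not a matched set. Over whole promoter fragments, an E-box lay in 55.1% of baits with an interaction listed at ZT18 only. It lay in 55.8% of all baits with a ZT18 interaction at that score, and in 52.9 to 55.8% at a single other timepoint. The window of Fas is shown for its E-box.
Fas promoter at chr19:34290409-34290708, plus strand: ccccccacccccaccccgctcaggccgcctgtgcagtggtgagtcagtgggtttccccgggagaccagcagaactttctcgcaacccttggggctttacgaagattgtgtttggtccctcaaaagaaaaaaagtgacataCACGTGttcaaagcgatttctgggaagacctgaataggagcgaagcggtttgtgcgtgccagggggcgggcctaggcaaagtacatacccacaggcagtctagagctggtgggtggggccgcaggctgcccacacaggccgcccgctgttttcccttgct

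The ends that were not baits resembled those of other ZT18 interactions. Of 1514 such ends, 556 (36.7%; 34.3 to 39.2%) lay between genes, 510 (33.7%) overlapped an exon, 414 (27.3%) an intron only and 34 (2.25%) a gene start that was no bait. Among all ZT18 interactions at a score of at least 7 these shares were 36.3%, 33.9%, 28.0% and 1.85%. The shares between genes were 41.3% at ZT0 only and 40.1% at ZT6 only, above the interval at ZT18, and 36.3% at ZT12 only. The median GC content of the distinct fragments was 45.4% (45.1 to 45.7%), against 44.8% for all ZT18 ends at that score, 43.5% at ZT0 only, 43.4% at ZT6 only and 45.0% at ZT12 only. The median fragment was 2188 bp long, against 2274 bp.

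Motif matches followed the same pattern. An E-box lay in 29.7% (443 of 1494) of the distinct fragments, or 137 matches per Mb, against 30.8% and 146 per Mb for all ZT18 ends at that score. For the D-box it was 44.5 against 43.5 matches per Mb, for the ROR core 103 against 104, for the HNF4 motif 16.2 against 15.3 and for the CTCF core 4.89 against 4.64. Values per Mb in the fragments listed at a single other timepoint ran from 133 to 147 for the E-box and from 2.56 to 4.31 for the CTCF core. Protein-coding genes started on 86.6% of the baits with an interaction listed at ZT18 only and on 85.5% of all baits with a ZT18 interaction at that score. By chromosome, 208 (10.7%) lay on chromosome 7 against 10.2% of all, 126 (6.49%) on chromosome 13 against 5.04% and 32 (1.65%; 1.17 to 2.32%) on the X chromosome against 0.940%.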

How the data were processed

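Promoter Capture Hi-C reads were mapped by the authors with HiCUP, to mm9 per the submitters' processing notes. The pools of a timepoint were merged, and interactions were called with CHiCAGO. The deposited value of each fragment pair is the authors' CHiCAGO score, which rises as the weighted p-value falls, for pairs that reach 5. Depth can change which pairs pass, and read depth was not analysed here. Files were assigned to timepoints by the sample labels.

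The tools were python 3.11.15 with numpy 2.4.6, pandas 2.3.3, scipy 1.17.1 for intervals and matplotlib 3.10.9. Pairs were taken as unordered, and fragments in the bait column of any of the lists counted as baits. Genes were placed with the GENCODE annotation of mm9. Of 59678 fragments read from the mm9 genome all began at a HindIII site and 59677 ended at one. Of 1931 protein-coding genes at these interactions, 1500 matched a RefSeq promoter, by symbol or by a synonym of a single gene, and the first window of a gene was used. Repeat content was not computed, as the genome copy has no repeat marks. The rule and neighbour search were tested on simulated data.

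The interactions, gene lists and motifs were chosen with earlier results of these data known. Named genes are those of the 12 highest scores, of the 8 baits with most such interactions, of up to 4 genes per list and of the 6 circadian genes of acrophase ZT18 with the highest scores. Genes outside this rule were named after their values were seen. The histone interval was set after seeing the data, with no gap over 2 Mb between Hist1 genes. Alternatives were other score minimums, other rules of absence, equal list sizes, the other order of timepoints, 1 interaction per promoter, other distances, baits of ZT18, intron-level oscillation and leaving out the histone cluster.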

Additional observations from a re-analysis of the deposited data

How the results depend on the processing

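No paired analysis was possible because each timepoint has 1 merged list, and for the same reason no replicate could be left out. Listing at 1 timepoint depends on the minimum. With a score of at least 5, 6 or 10, the interactions listed at ZT18 only were 13.9%, 6.13% and 0.211% of ZT18 interactions, with median distances of 196, 228 and 376 kb, 61.2%, 68.8% and 82.1% over 150 kb and 15.5%, 18.4% and 31.0% promoter-promoter. A neighbouring contact at another timepoint was found for 73.1% at a minimum of 5 and 73.2% at 10. When absence meant a score under 7 elsewhere, the values were 13.3% of ZT18 interactions, 169 kb, 55.3% over 150 kb, 18.6% promoter-promoter, 88.7% with a neighbouring contact and 9.31% at circadian promoters. When no pair within 10 kb at both ends was allowed elsewhere, they were 0.498%, 355 kb, 84.3%, 57.4% and, by construction, 0.0% with a neighbouring contact. With the other order of timepoints, 16.7% were promoter-promoter and 6.73% lay at circadian promoters. Counting adjoining fragments only, 53.1% had a neighbouring contact, and within 25 kb 86.3%. Counting circadian genes by their intron signal too, 1.59% lay at circadian promoters and 1 of 26 promoters (3.85%) peaked at ZT18, with fewer genes counted. Trimming every list to its 145124 top pairs and drawing the ZT18 interactions from the top 72562, 1 interaction per promoter, the gap between fragments, baits of ZT18 and, chosen after seeing the data, leaving out the histone cluster kept every value computed under them within the interval or 1.5-fold range of the main value. Depth of the libraries was not analysed here and can set which pairs pass.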
